A study of Mus musculus with 18 samples.

Results

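The caveolae coat genes are the 6 genes Cav1, Cav2, Ptrf (current symbol Cavin1), Sdpr (Cavin2), Prkcdbp (Cavin3) and Ehd2. They were taken by name from a deposited expression table of 46983 genes, in which each has 1 row. Caveolae are flask-shaped pits of the plasma membrane. Caveolins, inserted in the inner leaflet, oligomerise into the pit's scaffold, cavins assemble on them from the cytosol, and an ATPase of the EHD family rings the neck. Adipocytes are among the cells richest in caveolae, where the pits are known to take part in lipid uptake, insulin signalling and the buffering of membrane tension, and loss of Cav1 or of cavin-1 causes lipodystrophy in mice and humans.

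The genes were measured by RNA sequencing in mouse lipochondrocytes, the lipid-storing cells of ear cartilage, at postnatal days 8, 10, 13, 21 and 33 (P8 to P33), and in adipocytes from inguinal fat at postnatal day 33, with 3 libraries in each of the 6 groups and 18 in all. All 6 groups are labelled Wnt1-Cre2;TdTomato on a C57BL/6 background, where the Cre marks cells of neural crest descent. P8, P10 and P13 cells had been sorted on high TdTomato after collagenase digestion, whereas lipochondrocytes of P21 and P33, like the adipocytes, had been taken as the fraction that floats on centrifugation. The labels do not say whether the libraries of a group came from separate animals or pools, so p-values measure the spread between libraries, which may be technical.

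Libraries held 12461965 to 27640142 total reads, with alignment rates of 73.19% to 84.44%. Levels are FPKM, fragments per kilobase of transcript scaled to the mapped fragments of the library. This allows different genes to be set beside each other roughly, since the annotation that gave the lengths is not known. Without read counts for each gene, counting error cannot be stated. The labelled cell types matched their markers: 10 chondrocyte genes summed to 16094 to 28098 FPKM in the lipochondrocyte libraries and 1.45 to 2.16 FPKM in adipocytes, and 9 adipocyte genes to 4.57 to 39.0 FPKM in lipochondrocytes and 85680 to 91260 FPKM in adipocytes. The largest part of the chondrocyte sum was Cytl1, at 8873 to 20673 FPKM in lipochondrocytes, so the sum does not stand for each gene. Comp, for 1, lay at 0.31 to 1.04 FPKM at P8 to P13. In such bulk samples, fewer cells of a type and less RNA per cell cannot be told apart.

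Transcripts of 5 of the 6 coat genes were above 10 FPKM in lipochondrocytes at every stage, while Sdpr was near 0, and the proportions of the genes changed between P13 and P21. At P8 to P13 Cav1 was the most abundant of the 6 genes in each of the 9 libraries, and at P21 and P33 Prkcdbp was, in each of the 6 libraries. Sdpr lay between 0.16 and 1.07 FPKM in all 15 lipochondrocyte libraries and between 186 and 192 FPKM in adipocytes. Cav1, Cav2, Ptrf and Ehd2 were also lower in every lipochondrocyte library than in any adipocyte library, a pattern shown by 37.5% of the 13815 genes tested.

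**Figure D1:**
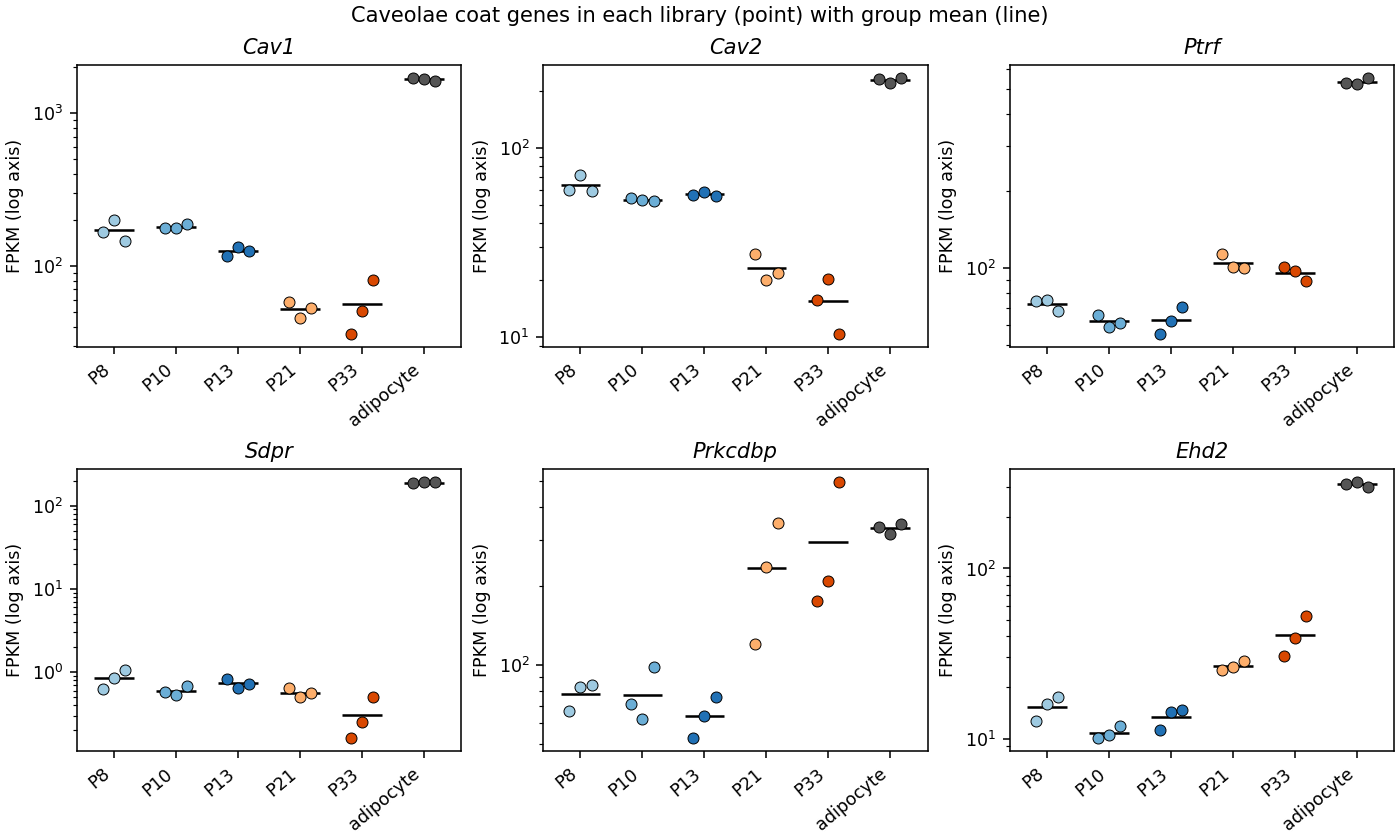
Level of each caveolae coat gene in FPKM (log axis, scaled separately for each gene) against group, from P8 to P33 lipochondrocytes and then adipocytes, with 1 point per library and a line at the group mean. Cav1 and Cav2 stand lower at P21 and P33 than at P8 to P13, Ptrf, Prkcdbp and Ehd2 stand higher, and Sdpr is between 0.16 and 1.07 FPKM in each lipochondrocyte library.

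Cav1 encodes caveolin-1, the scaffold protein without which non-muscle cells form no caveolae, and Cav2 encodes caveolin-2, which joins caveolin-1 in hetero-oligomers and depends on it to reach the cell surface. The genes are neighbours on mouse chromosome 6 of GRCm38 and lie on the plus strand. Cav2 (ENSMUSG00000000058.6) spans 17281185 to 17289115 and Cav1 (ENSMUSG00000007655.16) spans 17306335 to 17341452, leaving 17.2 kb between them. Because both caveolins changed together, the 250 bases before the first start site that RefSeq annotates for each (build GRCm38.p6) are shown, 5′ to 3′ on the plus strand, with matches to the searched motifs in capitals. The windows are chr6:17306085-17306334 for Cav1 and chr6:17280935-17281184 for Cav2.
Cav1: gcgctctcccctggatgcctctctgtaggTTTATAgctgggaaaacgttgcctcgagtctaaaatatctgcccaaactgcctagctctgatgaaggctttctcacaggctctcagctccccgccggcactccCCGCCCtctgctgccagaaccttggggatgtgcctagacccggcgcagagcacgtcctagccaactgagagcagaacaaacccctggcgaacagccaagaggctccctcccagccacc
Cav2: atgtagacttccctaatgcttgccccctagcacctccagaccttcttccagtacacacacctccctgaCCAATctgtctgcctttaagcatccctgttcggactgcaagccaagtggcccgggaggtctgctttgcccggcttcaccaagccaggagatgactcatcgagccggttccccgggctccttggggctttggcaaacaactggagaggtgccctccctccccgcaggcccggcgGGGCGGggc
In the Cav1 window the capitals mark TATAAA on the minus strand, 221 to 216 bases before the start, and GGGCGG on the minus strand at 118 to 113 bases. In the Cav2 window they mark CCAAT at 182 to 178 bases and GGGCGG at 9 to 4 bases, both on the plus strand. Both strands were searched, matches do not overlap, and neither window held the CArG box or the heat shock element GAANNTTCNNGAA. Over the 32851 windows of the same length in the RefSeq table, TATAAA was found in 12.4%, GGGCGG in 32.7%, CCAAT in 33.8%, the CArG box in 1.47% and the heat shock element in 0.466%. A match is a description of letters and not a binding site.

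Cav1 stood at 167, 199 and 146 FPKM at P8, at 178, 176 and 188 FPKM at P10, and at 116, 133 and 125 FPKM at P13. It stood at 57.6, 45.7 and 52.8 FPKM at P21 and at 35.7, 50.7 and 81.2 FPKM at P33, against 1695, 1662 and 1625 FPKM in adipocytes. All 9 sorted libraries were above all 6 libraries of P21 and P33, and the 3 adipocyte libraries were far above the rest. Within its library, Cav1 ranked in the 89.7th to 96.6th percentile of tested genes in lipochondrocytes and in the 99.5th in adipocytes.

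Cav2 was lower than Cav1 in each library, and like it stood lower at P21 and P33 than at P8 to P13. It was at 59.8, 72.1 and 59.2 FPKM at P8, 54.5, 53.2 and 52.4 FPKM at P10, 56.6, 58.9 and 55.5 FPKM at P13, 27.5, 19.98 and 21.8 FPKM at P21 and 15.7, 20.4 and 10.4 FPKM at P33, against 233, 222 and 235 FPKM in adipocytes. As for Cav1, no P21 or P33 library reached the lowest sorted one. Elsewhere the courses were less alike. From P10 to P13 the mean of Cav2 went from 53.4 to 57.0 FPKM and that of Cav1 from 180 to 125 FPKM. In the main test given below this step was called for neither gene, and that of Cav2 changed sign when libraries were rescaled. P33 replicate 3, the highest of its group for Cav1, was the lowest for Cav2.

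Ptrf encodes cavin-1, the cavin that every caveola requires. It lies on chromosome 11 at 100956733 to 100970887, on the minus strand (ENSMUSG00000004044.9). Its levels were 73.9, 75.0 and 67.6 FPKM at P8, 65.7, 58.8 and 60.7 FPKM at P10, 55.0, 62.2 and 70.4 FPKM at P13, 114, 101 and 100.1 FPKM at P21 and 100.6, 97.2 and 89.2 FPKM at P33, against 531, 524 and 554 FPKM in adipocytes. The P21 and P33 libraries lay above all sorted ones, the opposite of the caveolins. Of the 6 genes, Ptrf had the smallest spread over the stages, with a highest stage mean 1.70 times the lowest.

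Prkcdbp encodes cavin-3, which binds protein kinase C delta and helps caveolar vesicles to traffic, and it lies on chromosome 7 at 105480083 to 105482300 (minus strand, ENSMUSG00000037060.2). It stood at 67.0, 82.3 and 83.9 FPKM at P8, at 70.9, 62.4 and 98.4 FPKM at P10, at 52.6, 64.1 and 75.8 FPKM at P13, at 121, 235 and 347 FPKM at P21 and at 175, 210 and 497 FPKM at P33, against 335, 316 and 346 FPKM in adipocytes. It was the one member whose lipochondrocyte levels reached those of adipocytes, with 1 library of P21 and 1 of P33 above all adipocyte libraries. Its SD was 48.2% of the mean at P21 and 60.2% at P33, against 4.6% in adipocytes, so its level at these stages is poorly fixed by 3 libraries. P21 and P33 replicates 3, with the highest Prkcdbp of their groups, also had the highest summed level of 8 skeletal muscle genes in them (570 and 224 FPKM). The order did not hold within P21: replicate 1, lowest for Prkcdbp (121 FPKM), had a muscle sum of 319 FPKM, and replicate 2 (235 FPKM) had 83.9 FPKM. At P33, replicates 1 and 2 had muscle sums of 27.5 and 55.4 FPKM, with Prkcdbp at 175 and 210 FPKM. The part of muscle RNA in the Prkcdbp level was not tested.

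Ehd2 encodes the ATPase that holds caveolae at the cell surface. It lies on chromosome 7 at 15946958 to 15967567 (minus strand, ENSMUSG00000074364.5), 89.5 Mb from Prkcdbp. Its levels were 12.8, 15.9 and 17.7 FPKM at P8, 10.0, 10.5 and 11.8 FPKM at P10, 11.2, 14.4 and 14.7 FPKM at P13, 25.3, 26.2 and 28.6 FPKM at P21 and 30.5, 39.2 and 52.2 FPKM at P33, against 314, 321 and 301 FPKM in adipocytes. Each step from P13 to P21, P33 and adipocytes left no overlap between libraries.

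Sdpr encodes cavin-2, which binds phosphatidylserine and can draw caveolae out into tubules. It lies on chromosome 1 at 51289126 to 51302960 on the plus strand (ENSMUSG00000045954.7). Its levels were 0.63, 0.84 and 1.07 FPKM at P8, 0.58, 0.53 and 0.69 FPKM at P10, 0.82, 0.65 and 0.72 FPKM at P13, 0.64, 0.50 and 0.56 FPKM at P21 and 0.16, 0.25 and 0.50 FPKM at P33, against 186, 192 and 190 FPKM in adipocytes. Only 1 of the 15 lipochondrocyte libraries, P8 replicate 3, reached 1 FPKM. Sdpr thus passed the filter on low values (1 FPKM or more in 3 libraries or more) through the adipocytes, so that it had to differ from them, and its differences from adipocytes are given without a test and left out of the counts. Of the 13815 genes tested, 1524 likewise reached 1 FPKM in fewer than 3 lipochondrocyte libraries, and they are part of the shares of all genes given beside the counts. The other 5 members were above 1 FPKM in all libraries. It ranked in the 7.5th to 26.0th percentile of tested genes in lipochondrocytes and in the 96.7th to 96.8th in adipocytes.
The 250 bases before its RefSeq start, chr1:51288876-51289125 on the plus strand, are shown because this was the member nearly missing from one cell type. The capitals mark CCAAT at 140 to 136 bases before the start, the only match to the searched motifs.
Sdpr: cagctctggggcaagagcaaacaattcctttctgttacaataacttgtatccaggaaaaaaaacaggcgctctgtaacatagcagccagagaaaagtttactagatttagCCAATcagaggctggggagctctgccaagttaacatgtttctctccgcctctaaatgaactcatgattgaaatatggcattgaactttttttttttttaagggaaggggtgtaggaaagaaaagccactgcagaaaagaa
The G and C content of this window was 40.4%, against 59.6% and 62% in the Cav1 and Cav2 windows and a median of 52.4% over all windows. RefSeq windows were found for 5 of the 6 members, and those of Ptrf (GGGCGG and CCAAT) and Ehd2 (GGGCGG and CCAAT) are not printed because they overlap exons of the GENCODE M21 annotation. Prkcdbp was not matched.

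The sum of the 6 genes was 400 ± 39 FPKM at P8, 384 ± 26 at P10, 322 ± 27 at P13, 442 ± 103 at P21 and 502 ± 200 at P33, against 3260 ± 31 FPKM in adipocytes (SD, n = 3 each). The composition of that sum turned over between P13 and P21. Cav1 made up 42.4% ± 3.2 of it at P8, 47.0% ± 1.5 at P10, 38.7% ± 1.8 at P13, 12.3% ± 3.8 at P21 and 11.1% ± 1.1 at P33, against 50.9% ± 0.82 in adipocytes. Prkcdbp made up 19.5% ± 2.5 at P8, 19.9% ± 3.5 at P10, 19.8% ± 2.1 at P13, 51.0% ± 14 at P21 and 55.7% ± 11 at P33, against 10.2% ± 0.44 in adipocytes. Sdpr held 5.8% of the sum in adipocytes and at most 0.285% in any lipochondrocyte library.

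**Figure D2:**
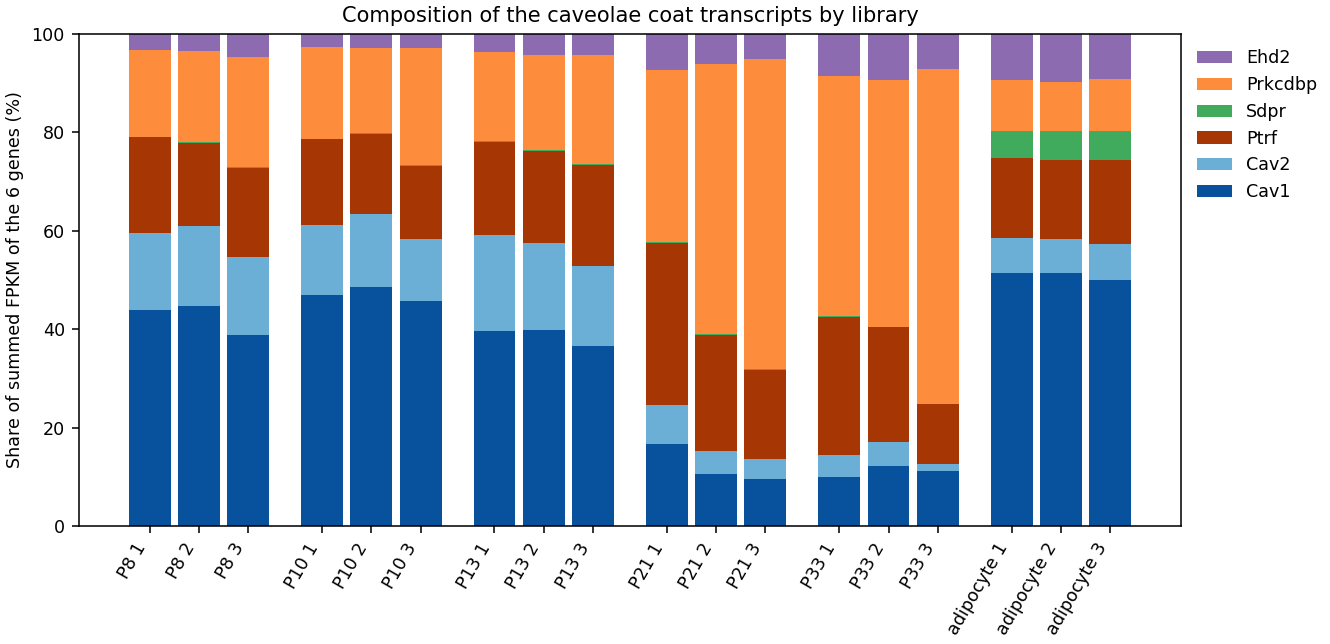
Share of each gene in the summed FPKM of the 6 caveolae coat genes (percent, stacked bars, 1 bar per library labelled with its group and replicate number). Cav1 takes 36.6% to 48.6% in the 9 sorted libraries, 9.6% to 16.7% at P21 and P33 and 50.0% to 51.5% in adipocytes, and Prkcdbp takes 34.9% to 68.0% at P21 and P33.

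A ratio between members within a library does not depend on how the library was scaled. The ratio of Ptrf to Cav1 was 0.43 ± 0.045 at P8, 0.34 ± 0.024 at P10, 0.50 ± 0.052 at P13, 2.03 ± 0.16 at P21 and 1.95 ± 0.86 at P33, against 0.32 ± 0.016 in adipocytes. The 6 libraries of P21 and P33 were at 1.10 to 2.82, above all others, and in these libraries alone was the level of Ptrf above that of Cav1. The ratio of Prkcdbp to Ptrf was 1.08 ± 0.17 at P8, 1.25 ± 0.32 at P10, 1.02 ± 0.06 at P13, 2.29 ± 1.2 at P21 and 3.16 ± 2.1 at P33, against 0.62 ± 0.014 in adipocytes. The 3 P21 libraries (1.06 to 3.46) overlapped those of P13 (0.96 to 1.08). Cav2 relative to Cav1 was at 0.13 to 0.44 at P33, where replicate 3 was lowest, against 0.13 to 0.14 in adipocytes, and in the other lipochondrocyte groups it lay at 0.28 to 0.49, above adipocytes in each library.

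**Figure D3:**
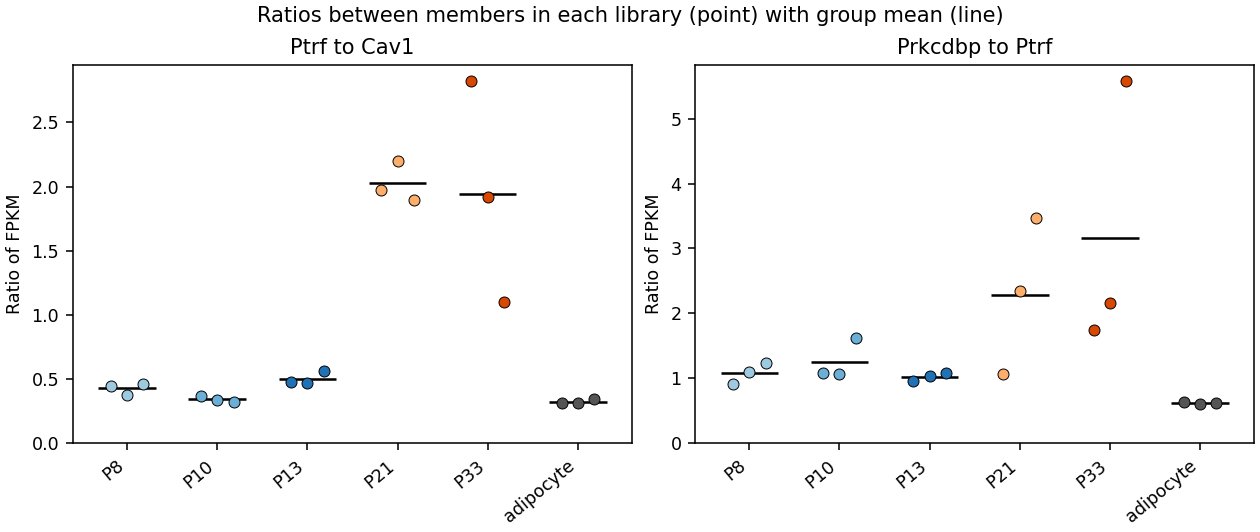
Ratio of Ptrf to Cav1 (left) and of Prkcdbp to Ptrf (right), both in FPKM, against group, with 1 point per library and a line at the group mean. The Ptrf to Cav1 ratio is 1.10 to 2.82 at P21 and P33 and 0.31 to 0.56 in the other 12 libraries, and the Prkcdbp to Ptrf ratio spreads from 1.06 to 5.58 at P21 and P33.

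Ratios at P33 and in adipocytes were compared by an exact permutation test (two-sided, 3 against 3, where 0.10 is the smallest p). In this exact permutation test the log2 ratio of Ptrf to Cav1 was higher by 2.49 at P33 (p = 0.10, adjusted p = 0.167). That of Prkcdbp to Ptrf was higher by 2.15 (p = 0.10, adjusted p = 0.167 in the same exact permutation test). Adjustment was over 5 ratios, with that of Sdpr to Ptrf counted. The log2 ratio of Cav2 to Cav1 differed by 1.03 (p = 0.40, adjusted p = 0.40 in the same exact test) and that of Ehd2 to Ptrf by -0.49 (p = 0.20, adjusted p = 0.25). The design cannot reach 0.05, so these ratios rest on whether their ranges overlap. The log2 ratio of Sdpr to Ptrf differed by -6.96, or by -4.72 with 1 added to each FPKM. It is given without a p, since Sdpr passed the filter on low values through the adipocytes alone and so had to differ from them.

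P33 lipochondrocytes and adipocytes were matched in age and both taken by flotation, though from different tissues, so this comparison asks how the coat differs between the cell types. Tested differences are in units of log2(FPKM + 1), each given with its standard error (SE), and come from limma fitted to all 18 libraries and 13815 genes, with Benjamini-Hochberg adjusted p called below 0.05. At P33, 4 of the 5 members other than Sdpr were lower than in adipocytes and none was higher, where 44.5% of all tested genes were lower and 24% higher. The libraries of these 4 members did not overlap, which held with the lower level at P33 for 46.1% of genes. Cav1 differed by -4.95 (SE 0.21, adjusted p = 1.15e-11), Cav2 by -3.85 (SE 0.18, adjusted p = 2.73e-11), Ehd2 by -2.94 (SE 0.17, adjusted p = 3.51e-10) and Ptrf by -2.48 (SE 0.098, adjusted p = 5.25e-12), each in 3 of 3 libraries. The difference of Sdpr was -7.20, or -8.96 with a pseudocount of 0.1, since its lipochondrocyte levels lie about or below the added 1. Prkcdbp differed by -0.33 (SE 0.37, adjusted p = 0.441), by 0.06 when libraries were rescaled by median of ratios, and by -0.79 (adjusted p = 0.0429) without P33 replicate 3. The median over the 5 members without Sdpr was -2.94, beside -0.28 over all genes, which the other scaling moved to 0.024.

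Markers of other cell types moved with these differences, among them those of endothelium, which is also rich in caveolae. The 12 endothelial genes summed to 11.7 to 15.4 FPKM at P33 and to 840 to 900 FPKM in adipocytes, and none of the 12 was at 0 in all P33 libraries. The 9 macrophage genes summed to 32.3 to 60.8 FPKM at P33 and 767 to 830 FPKM in adipocytes. The 8 smooth muscle and pericyte genes summed to 58.0 to 79.0 FPKM at P33 and 110 to 112 FPKM in adipocytes. Without Cspg4, which is high in lipochondrocytes (24.0 at P33 against 3.87 by group means), the other 7 summed to 32.9 to 59.1 and 107 to 108 FPKM. These 7 did not move together. By group means Rgs5 was at 0.19 FPKM at P33, against 41.9, and Acta2 at 31.8, against 35.6. Pdgfrb alone of the 7 was higher at P33, at 8.18 against 5.76. The 10 fibroblast and perichondrium genes went the other way, at 8930 to 16254 FPKM at P33 and 599 to 609 FPKM in adipocytes. The sums of the 8 skeletal muscle genes overlapped, at 27.5 to 224 FPKM at P33 and 30.1 to 33.9 FPKM in adipocytes. The adipocyte sum was mostly Acta1, with a group mean of 29.1 FPKM, against 42.5 at P33. Each other gene of that list was higher in every P33 library than in any adipocyte library. Tnni2 was at 6.01 to 41.5 FPKM at P33 and at most 0.24 in adipocytes. Tnnc2 was at 2.57 to 30.4 FPKM at P33 and at most 0.4 in adipocytes. The dissociation response, 8 immediate early and heat shock genes that rise when tissue is taken apart, summed to 51.1 to 62.6 FPKM at P33 and 3446 to 3558 FPKM in adipocytes. The part of any of these in the members' differences was not tested.

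The earlier stages were below adipocytes as well, though there age and isolation differ too for P8, P10 and P13. Leaving Sdpr aside, all 5 members were lower at P8, P10 and P13, beside 52.2%, 58.9% and 54.0% of all genes, and 4 of 5 at P21, beside 43.1%. Cav1, Cav2, Ptrf and Ehd2 were lower at all 5 stages, as were 36.5% of the genes tested. These comparisons share the adipocyte libraries. The difference of Cav1 was -3.29 at P8, -3.20 at P10, -3.73 at P13 and -4.98 at P21, and that of Cav2 was -1.84, -2.08, -1.99 and -3.27 at the same stages. That of Ehd2 was -4.26 at P8, -4.73 at P10, -4.45 at P13 and -3.50 at P21. Prkcdbp differed by -2.09 at P8, -2.12 at P10 and -2.37 at P13, and by -0.63 at P21 (limma adjusted p = 0.148), or -0.97 (adjusted p = 0.0347) without P21 replicate 3.

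Among the sorted stages no member passed the test. Between P13 and P8, limma called 0 of 6 (and 0 at an unadjusted p below 0.05), where 4.21% of all genes were called, and the differences ran from -0.44 for Cav1 (SE 0.21, adjusted p = 0.326) to -0.09 for Sdpr. Cav1 was nevertheless lower in all 3 P13 libraries than in any P8 library, and so was Cav2, as were 10.9% of genes. Between P10 and P8 none was called, beside 11% of all genes, with 2 members at an unadjusted p below 0.05. Ehd2 came nearest at -0.47 (SE 0.17, adjusted p = 0.0784), and over the alternatives its adjusted p ran from 0.0271 with the replicate block, at the same difference, to 0.634 under median-of-ratios scaling, where the difference was -0.16. Between P13 and P10 none was called either, beside 22.6%, with 1 at an unadjusted p below 0.05. That was Cav1 at -0.53 (SE 0.21, adjusted p = 0.083), which passed under median-of-ratios scaling (-0.83, adjusted p = 0.0162) and with only these 2 groups modelled (adjusted p = 0.0103).

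Between P13 and P21 the coat genes moved in opposite directions. Cav1 fell to 52.0 ± 6 FPKM at P21, against 125 ± 8.3 at P13, and Cav2 to 23.1 ± 3.9 FPKM, against 57.0 ± 1.7 (SD, n = 3 each). Prkcdbp rose to 234 ± 110 FPKM, against 64.2 ± 12, Ehd2 to 26.7 ± 1.7, against 13.4 ± 1.9, and Ptrf to 105 ± 7.8, against 62.6 ± 7.7. Limma thus called 2 members lower, beside 7.04% of all genes, and 3 higher, beside 36%. The differences were -1.25 for Cav1 (SE 0.21, adjusted p = 2.73e-04), -1.28 for Cav2 (SE 0.18, adjusted p = 4.59e-05), 1.74 for Prkcdbp (SE 0.37, adjusted p = 1.73e-03), 0.95 for Ehd2 (SE 0.17, adjusted p = 3.75e-04) and 0.74 for Ptrf (SE 0.098, adjusted p = 3.38e-05). For each of the 5, and for Sdpr, the P21 and P13 libraries did not overlap: Cav1, Cav2 and Sdpr were lower at P21, as were 8.63% of genes, and the other 3 were higher, as were 44.1%. Sdpr was at 0.57 ± 0.07 FPKM, against 0.73 ± 0.085, a difference of -0.14 (adjusted p = 0.318).

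The median difference over all genes was 0.289 in this comparison and was 0.008 under median-of-ratios scaling. With that scaling Ptrf, at 0.31, was no longer called (adjusted p = 0.0518), Sdpr was called lower (-0.32, adjusted p = 0.0247), and Cav1 (-1.68), Cav2 (-1.70), Prkcdbp (1.31) and Ehd2 (0.54) kept their calls. Isolation changes at this step as well, from sorting to flotation, so stage and isolation cannot be told apart. The 8 dissociation response genes summed to 59.4 to 119 FPKM at P21, against 15455 to 18120 FPKM at P13, and stood at 3446 to 3558 FPKM in adipocytes. Fibroblast and perichondrium genes (10) summed to 6736 to 12753 FPKM at P21, against 2460 to 3246 at P13, skeletal muscle genes (8) to 83.9 to 570, against 24.2 to 38.0, endothelial genes (12) to 9.53 to 19.2, against 8.36 to 10.2, and macrophage genes (9) to 17.4 to 27.6, against 3.87 to 4.45. Smooth muscle and pericyte genes (8) summed to 58.4 to 67.1 FPKM at P21, against 92.8 to 121 at P13, which was the course of Cspg4 (31.6 ± 5.5, against 91.5 ± 15, SD, n = 3 each). The other 7 summed to 25.9 to 40.5, against 17.1 to 23.0, but did not move together. By group means, Pdgfrb was at 9.90 FPKM, against 2.92, and Des at 3.07, against 0.59. Rgs5, at 0.30 against 1.16, and Cnn1, at 0.017 against 0.063, went the other way. The part of these shifts in the members' changes was not tested.

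**Figure D4:**
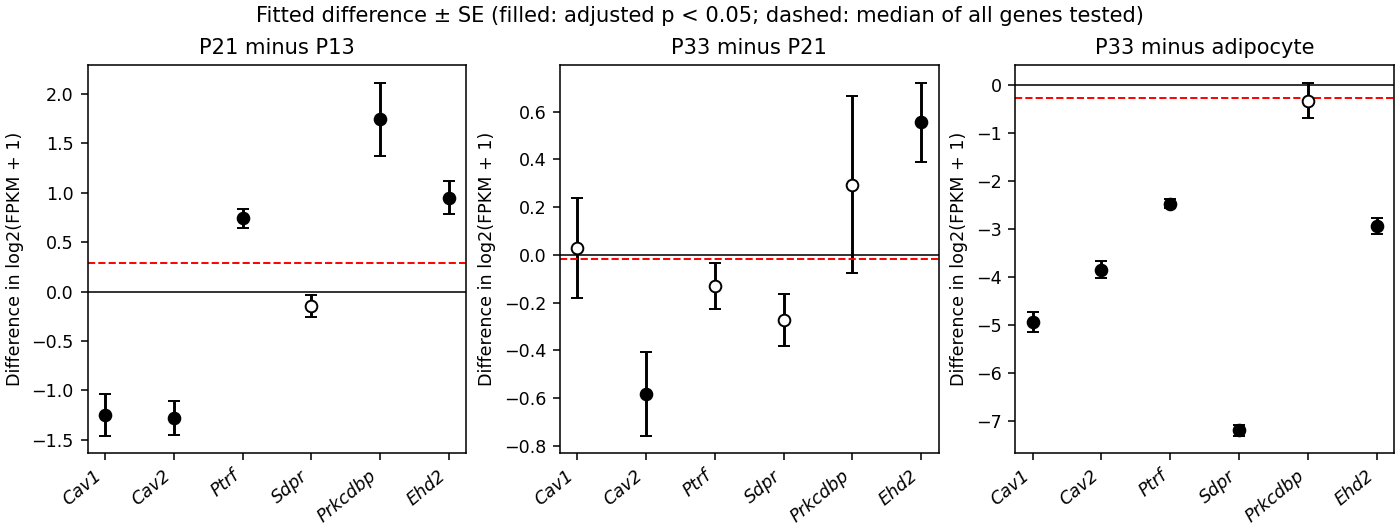
Fitted difference in log2(FPKM + 1) for each member in P21 minus P13, P33 minus P21 and P33 minus adipocyte (panels with separate scales), with its standard error as bars. Filled points have an adjusted p below 0.05 and the dashed line is the median of all genes tested, and Sdpr, filled in P33 minus adipocyte, passed the filter on low values through the adipocytes alone. In P21 minus P13, Cav1 (-1.25) and Cav2 (-1.28) lie below 0 while Ptrf (0.74), Ehd2 (0.95) and Prkcdbp (1.74) lie above it.

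Between P33 and P21, both isolated by flotation, 2 members passed the test. Ehd2 was called higher at 40.6 ± 11 FPKM at P33, against 26.7 ± 1.7 at P21 (0.56, SE 0.17, adjusted p = 0.0465), where 2.87% of all genes were called higher. Its P33 libraries were all above those of P21, as for 8.2% of genes. Cav2 was called lower at 15.5 ± 5 FPKM, against 23.1 ± 3.9 (-0.58, SE 0.18, adjusted p = 0.0484), where 7.17% were. Both calls were at the edge of the threshold: that of Cav2 was lost without any 1 of 17 of the 18 libraries, and that of Ehd2 without any 1 of 14, as well as with only these 2 groups modelled (adjusted p = 0.352 and 0.269). Cav1 (0.03, SE 0.21, adjusted p = 0.974), Ptrf (-0.13), Prkcdbp (0.29, SE 0.37) and Sdpr (-0.27, adjusted p = 0.142) were not called, and Sdpr passed without P33 replicate 3 (-0.38, adjusted p = 0.032). With a pseudocount of 0.1 the difference of Sdpr was -0.81 (adjusted p = 0.0648). Dissociation response genes summed to 51.1 to 62.6 FPKM at P33 and 59.4 to 119 FPKM at P21, endothelial genes to 11.7 to 15.4 and 9.53 to 19.2, skeletal muscle genes to 27.5 to 224 and 83.9 to 570, and fibroblast and perichondrium genes to 8930 to 16254 and 6736 to 12753. Macrophage gene sums did not overlap, at 32.3 to 60.8 FPKM at P33 and 17.4 to 27.6 FPKM at P21. Smooth muscle and pericyte genes without Cspg4 summed to 32.9 to 59.1 and 25.9 to 40.5. Genes within a list could go both ways by group means. Among fibroblast and perichondrium genes Dcn was higher at P33 (4540 against 1819 FPKM) and Col3a1 lower (486 against 942). Among smooth muscle and pericyte genes Acta2 was higher (31.8 against 17.6) and Pdgfrb lower (8.18 against 9.90). The part of these in the changes of Cav2 and Ehd2 was not tested.

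Of 10 further genes for proteins of caveolae, 6 passed the filter on low values, and 4 of these were lower than in adipocytes at P33 and 2 higher, where 44.5% and 24% of all genes were. Ehd1 and Ehd4, relatives of Ehd2, differed by -2.38 (adjusted p = 2.52e-08) and -1.98 (adjusted p = 5.06e-06), and Dnm2, the dynamin that severs vesicle necks, by -1.52 (adjusted p = 4.45e-08). The membrane-bending Pacsin2 made up the 4 lower calls (-0.59), Pacsin3 (0.69) and Ehd3 (0.50) were the higher ones, and the list's median was -1.05. At P21 against P13, Ehd3 rose by 1.41 (adjusted p = 4.83e-07) and Pacsin2 by 0.61. Pacsin2 lost its call with median-of-ratios scaling (0.22, adjusted p = 0.0582), and the list's median was 0.262 beside 0.289 over all genes. Cav3, the muscle caveolin, did not pass the filter. It stood at 0.75 to 1.78 FPKM at P21 and at most 0.86 FPKM in any other library, and P21 was also the group with the highest skeletal muscle sums. Murc, the muscle cavin, and Pacsin1 and Ror1 also failed the filter.

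Of 8 genes whose proteins reside in or bind to caveolae, 2 (Aoc3 and Nos3) reached 1 FPKM in fewer than 3 lipochondrocyte libraries and so had to differ from adipocytes. Of the other 6, 3 were lower than in adipocytes at P33 and 3 higher, beside 44.5% and 24% of all genes. The higher ones include Src, which reached 1 FPKM in 15 lipochondrocyte and 0 adipocyte libraries. Src thus passed the filter through lipochondrocytes alone and also had to differ. The median of the 6, with Src counted, was -0.17. The fatty acid translocase Cd36 was at 0.48 to 0.79 FPKM at P33 and 2258 to 2291 FPKM in adipocytes, a difference of -10.42 (adjusted p = 2.89e-16). The insulin-regulated glucose transporter Slc2a4 differed by -4.03 (adjusted p = 6.18e-11) and the insulin receptor Insr by -0.88 (adjusted p = 6.02e-05). The amine oxidase Aoc3 stood at 0.46 to 0.79 FPKM at P33 and 22.6 to 24.3 FPKM in adipocytes. Prkca (1.11), Src (0.73) and Prkcd (0.54), kinases linked to caveolins or cavins, were the higher ones. At P21 against P13, Slc2a4 rose by 3.46 (adjusted p = 6.04e-09), Cd36 by 1.96 (adjusted p = 8.49e-07) and Prkcd, the kinase named in Prkcdbp, by 0.96 (adjusted p = 4.58e-06). With Aoc3 and Insr they made 5 rises of 8, beside 36% of all genes, or 4 under median-of-ratios scaling, where Insr was not called. Slc2a4 stood at 10.4 to 20.2 FPKM at P21, against 0.28 to 0.40 at P13. At P33 the list had 3 falls against P21, of Slc2a4 (-1.02, adjusted p = 3.85e-03), Cd36 (-1.91, adjusted p = 9.62e-06) and Insr (-0.55). With only these 2 groups modelled none of the 3 was called (adjusted p = 0.143 for Slc2a4, 0.0526 for Cd36 and 0.158 for Insr). The 9 adipocyte marker genes summed to 32.5 to 39.0 FPKM at P21, against 12.2 to 14.6 at P13, and to 16.3 to 20.2 FPKM at P33. At P21 this sum was mostly Fabp4 (mean 16.4, against 1.83 at P13) and Pparg (12.8, against 10.2). The 8 skeletal muscle genes summed to 83.9 to 570 FPKM at P21, against 24.2 to 38.0 at P13, and to 27.5 to 224 at P33. The part of adipocyte or muscle RNA in the changes of this list was not tested.

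Clathrin coats form the other well-known pits of the plasma membrane. Of 11 clathrin coat genes, 4 were lower than in adipocytes at P33 and 0 higher, beside 44.5% and 24% of all genes, with a median of 0.024, and under median-of-ratios scaling 3 were lower and 5 higher. Ap2b1 (-1.59, adjusted p = 5.82e-08), Cltc (-1.09, adjusted p = 1.32e-05) and Ap2a2 (-1.07, adjusted p = 6.40e-07) led the lower calls, and Clta (-0.29) changed sign with that scaling. Flot1 and Flot2, scaffold proteins of another membrane domain, were not called at P33 against adipocytes (-0.31 and -0.23). Both rose at P21 against P13, by 0.97 and 1.18, and kept their calls under median-of-ratios scaling. At P21 against P13, 6 clathrin coat genes rose, or 1 under that scaling, and none fell, beside 36% and 7.04% of all genes.

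Likeness of course over the 18 libraries was measured as the root-mean-square difference between log2(FPKM + 1) profiles, each centred on its own mean, so that lower values are more alike. All genes share the libraries and the step to adipocytes weighs heavily. Among the members the smallest differences were between Ptrf and Ehd2 (0.61) and between Cav1 and Cav2 (0.67). Of 13814 genes, Cav2 ranked 22nd in likeness to Cav1 and Cav1 80th in likeness to Cav2, whereas Ptrf ranked 387th in likeness to Ehd2 and Ehd2 2339th in likeness to Ptrf. Prkcdbp ranked 8507th in likeness to Cav1. Outside the coat, the genes nearest to Cav1 were Lhfpl2 (0.36), Mcam (0.40) and Dnajb1 (0.42), and those nearest to Cav2 were Slc25a25 (0.30), Ptp4a1 (0.33) and Hspd1 (0.37). Dnajb1 and Hspd1 encode chaperones of the heat shock families. Ptrf was nearest to Sfxn5 (0.14), Nol3 (0.15) and H2-DMa (0.16), and Ehd2 to Chrdl1 (0.24), Gyg (0.25) and Acbd4 (0.25). Sfxn5, Nol3 and H2-DMa had group means of 0.15 to 1.55 FPKM in lipochondrocytes, against 61.8 to 105 for Ptrf. At such low levels the added 1 shrinks differences, so likeness on this scale need not be likeness in fold change. Lhfpl2, Mcam, Chrdl1 and Mapk12 also had group means below 1 FPKM at some stages. Sdpr was nearest to Slc36a2 (0.19), Steap4 (0.24) and Lep (0.28), and Prkcdbp to Palm (0.26), Slc9a3r2 (0.28) and Mapk12 (0.30). Slc36a2, Steap4 and Lep, like Sdpr, were near 0 in lipochondrocytes, with group means of at most 0.51 FPKM. Their likeness to Sdpr thus rests on the step to adipocytes and says nothing of a course over the stages.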

How the data were processed

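The authors deposited FPKM with 1 column for each of 18 libraries. Alignment was done with STAR 2.4.2a on mm10, per the submitters' processing notes, while the quantifier and annotation were not given in the sources at hand. Another deposited file lists a count of total reads and an alignment percent per library. Genes reaching 1 FPKM in 3 or more of the 18 libraries (13815 genes) were taken to log2(FPKM + 1) and fitted with limma 3.58.1 (R 4.3.3) as 6 group means with a mean-variance trend, a procedure tested on simulated data. In all, 10 comparisons were tested two-sided, each adjusted by Benjamini-Hochberg over all genes. Ratios were tested by exact permutation (scipy 1.17.1). Coordinates are from GENCODE M21 (GRCm38), joined by gene identifier without version, and promoter sequence is from RefSeq. Of 111 listed genes, 110 matched by symbol and 1 by identifier. Identical libraries numbered 0, and 0 sample columns went unused. Genes named are the 6 members, up to 3 called genes of each list per comparison with the largest change, the 3 genes most like each member in course, and a few further list genes that complete a count, chosen after their values were seen, as were the motifs. The members and lists were chosen with earlier results of these data known. Alternatives were a pseudocount of 0.1, no filter, median-of-ratios scaling, only the 2 groups compared, a replicate block, and leaving out each library; those for single list genes and list counts were added after seeing the data. Leaving out of counts against adipocytes those members and list genes that passed the filter through adipocytes alone, and the marker sum without Cspg4, were also chosen after seeing the data.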

Additional observations from a re-analysis of the deposited data

How the results depend on the processing

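Whether replicate numbers pair the libraries is not decided by these values: 13 of 45 same-numbered pairs deviated together (correlation over 0.1, range -0.17 to 0.31), and 8 of 18 libraries were nearest to their own number. The share among pairs with different numbers was not computed. With the replicate block, 1 member was called lower between P10 and P8 (Ehd2) in place of 0, and no other member call changed. Between P33 and P21, the calls of 1 member higher and 1 lower became 0 and 0 with a pseudocount of 0.1, with no filter and with only the 2 groups compared, and the lower call became 0 under median-of-ratios scaling. Between P13 and P10, 1 member was lower under median-of-ratios scaling and with only the 2 groups compared, in place of 0. The cause of these shifts was not tested.

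Each library was left out in turn. Against adipocytes, with Sdpr left aside, only the call of Prkcdbp changed. It was called lower at P33 without P33 replicate 3 (-0.79, limma adjusted p = 0.0429) and at P21 without P21 replicate 3 (-0.97, adjusted p = 0.0347). Between P21 and P13, 3 to 3 members were higher and 2 to 2 lower. The counts were 0 to 1 in each direction between P33 and P21. Between P10 and P8 and between P13 and P10 they were 0 to 1 lower. Differences not called changed sign in Cav1 (-0.28 to 0.30) and Prkcdbp (-0.164 to 0.639) between P33 and P21, in Cav1 (-0.0129 to 0.210) and Prkcdbp (-0.215 to 0.11) between P10 and P8, and in Ptrf (-0.0752 to 0.10) between P13 and P10. The log2 ratio of Ptrf to Cav1 then differed by 2.17 to 2.85 between P33 and adipocytes, Prkcdbp to Ptrf by 1.65 to 2.49, Cav2 to Cav1 by 0.71 to 1.60, Ehd2 to Ptrf by -0.74 to -0.26 and Sdpr to Ptrf by -7.45 to -6.54, which with 1 added to each FPKM was -4.72.

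Median-of-ratios scaling changed the sign of Prkcdbp at P33 against adipocytes (0.0597), of Cav2 (0.0839), Ptrf (0.11) and Prkcdbp (0.30) between P10 and P8, of Cav2 (-0.20), Ptrf (-0.28) and Sdpr (-0.00296) between P13 and P10, and of Clta at P33 against adipocytes (0.10). Of these only Clta was called before. Over all genes, that scaling gave 2200 higher and 2195 lower between P21 and P13 in place of 4977 and 972. Higher and lower calls against adipocytes became 4229 and 4463 at P13 (from 2462 and 7462), 4575 and 4715 at P10 (2326 and 8137) and 4421 and 4620 at P8 (2668 and 7211). Between P10 and P8 they became 518 and 144 (262 and 1263), and between P13 and P10 1091 and 1288 (2567 and 557). With only the 2 groups modelled, 228 and 119 genes were called between P13 and P8 (371 and 210), 28 and 98 between P33 and P21 (397 and 991) and 161 and 190 between P10 and P8. A pseudocount of 0.1 gave 262 higher between P33 and P21, and no filter 746 lower between P10 and P8. Depth per gene is unknown from FPKM.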
